A study of Mus musculus with 12 samples.

Results

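The 9 genes described here encode chaperones and proteases that work inside mitochondria. They are Hspd1, Hspe1, Hspa9 and Trap1 among the chaperones, Lonp1, Clpp and Clpx among the proteases of the matrix, and Yme1l1 and Afg3l2 among the proteases of the inner membrane. They were chosen by name as markers of the mitochondrial unfolded protein response, and each name matched 1 of the 54447 rows of the count table. All 9 were among the 13608 genes that passed the filter on low counts.

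RNA sequencing was made in mouse cells that the labels call embryonic fibroblasts and that the methods of the study call NIH3T3, a mouse fibroblast line. Both populations carried a construct under a Tet-on promoter, which is switched on by doxycycline (dox). The construct encodes N-VEGF, the N-terminal stretch of the long isoform of the growth factor VEGF, or NLS-N-VEGF, in which a nuclear localization sequence is joined to that stretch. Each population was sampled without and with dox, which gave 4 groups of 3 libraries. All 4 groups carried a lentiviral construct, and the groups used here hold no cells given dox without one, so dox and the induced protein cannot be told apart. The methods state in general terms that experiments were repeated, but the sources used here do not say which libraries of a group came from separate cultures, so p-values measure only the spread between these libraries.

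Proteins that enter mitochondria arrive unfolded. The mitochondrial HSP70, encoded by Hspa9, pulls them in and hands many of them to the HSP60 barrel, encoded by Hspd1, which is closed by the HSP10 lid, encoded by Hspe1. Proteins that fail to fold are degraded by LONP1 and by CLPP, whose unfoldase is CLPX, while YME1L1 and AFG3L2 act on either face of the inner membrane. In the mitochondrial unfolded protein response, genes of this kind rise when the organelle holds misfolded or unassembled proteins. Dox, a tetracycline, is known to inhibit translation on mitochondrial ribosomes, which is the reason to compare these genes between cells with and without it.

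The libraries held 13549331 to 18982127 counts, so that a level of 3 counts corresponded to 0.158 to 0.221 counts per 1000000 counts of a library (CPM), a floor that covers counting error only. The construct row lay at 0.29 to 0.87 CPM in the 6 libraries without dox and at 2.53 to 18.0 CPM in the 6 with dox. The library titles end in a number and a suffix, 1_120519, 2_120519 and 2_290419 in each group, and the labels do not say what the suffix means. Libraries stood apart by suffix more than by group, as 6207 of 13608 genes differed between the suffixes in edgeR's quasi-likelihood test. Library 1_120519 of N-VEGF cells without dox had the fewest genes detected, 19976, and the lowest share of counts on mitochondrially encoded genes, 3.92% against up to 6.17%. Fibroblast markers were at 1 CPM or more for 8 of 10 genes, all but Fap and Lum, and summed to 10975 to 13351 CPM. The marker lists of leukocytes, endothelium and epithelium summed to at most 13.6, 5.02 and 3.75 CPM, and Tyrobp and Krt5, markers of leukocytes and of epithelium, held no counts in any library. In these bulk libraries fewer cells of a type and less RNA per cell cannot be told apart.

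The promoter of Hspe1 is shown because Hspd1 and Hspe1 are neighbours that point away from each other, and because these members had the largest differences between the suffixes. The window, from RefSeq on GRCm38.p6, runs from 250 bases before to 50 bases after the Hspe1 start, at chr1:55087898-55088197 on the + strand. It lies inside the annotated gene body of Hspd1, at 55077835 to 55088243, and so not before the annotated start of that gene. Capitals mark a run of 3 overlapping matches, 2 to TTCNNGAA and 1 to GAANNTTC, the paired units to which heat shock factor binds.
Hspe1: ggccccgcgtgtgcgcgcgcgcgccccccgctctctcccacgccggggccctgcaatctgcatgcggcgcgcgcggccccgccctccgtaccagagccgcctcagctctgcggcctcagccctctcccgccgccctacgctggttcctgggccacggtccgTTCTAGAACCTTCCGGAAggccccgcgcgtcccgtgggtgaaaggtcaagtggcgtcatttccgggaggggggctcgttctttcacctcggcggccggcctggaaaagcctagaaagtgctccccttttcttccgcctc
The matches start at bases 162, 167 and 172 of the window, and the letters are their own reverse complements, so both strands were searched at once. Of 32851 RefSeq promoter windows of the same length, 8.52% held TTCNNGAA and 7.86% held GAANNTTC. Of the 7 members with an entry in the table, which had 8 windows, Hspd1 and Hspe1 held both motifs and Clpp held TTCNNGAA. The Hspd1 window from 55087883 overlaps that of Hspe1, and its matches are the same bases, so they are not separate sites. The Hspd1 window from 55088194 held neither motif.

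The promoter of Lonp1 is shown because Lonp1 moved in the opposite direction to Hspd1 and Hspe1 between the suffixes. Its window lies at chr17:56626854-56627153 on the - strand of GRCm38.p6, and capitals mark 1 match to TGACGTNA, a form of the cyclic AMP response element to which factors of the CREB and ATF families bind.
Lonp1: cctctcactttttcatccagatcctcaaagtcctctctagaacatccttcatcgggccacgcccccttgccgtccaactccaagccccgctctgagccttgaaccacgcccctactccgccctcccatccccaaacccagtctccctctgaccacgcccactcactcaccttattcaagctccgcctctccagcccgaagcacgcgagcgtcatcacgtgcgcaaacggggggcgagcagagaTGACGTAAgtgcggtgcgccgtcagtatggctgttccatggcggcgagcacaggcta
The match starts at base 244, and the motif, searched on both strands, was held by 2.93% of all windows and by Lonp1 and Trap1 among the members. TGATGNAA, the letters of the CHOP and ATF4 composite element, was in 3.97% of all windows and in no window of the 7 members. GCGCANGC, the core of the nuclear respiratory factor motif, was in 9.95% of all windows, in the Hspd1 window from 55088194 and in that of Clpx. A match is a description of these letters and not a binding site.

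Per exon length, the chaperones Hspd1, Hspa9 and Hspe1 were the most abundant members in every library. Their median levels, in CPM per kilobase of exon (RPKM), were 397 (range 347 to 507 over 12 libraries) for Hspd1, 263 (232 to 285) for Hspa9 and 141 (123 to 211) for Hspe1. Trap1, which encodes a mitochondrial relative of HSP90, came next at 63.0 RPKM. Lonp1 at 51.3 RPKM and Clpp at 46.3 RPKM followed, and Lonp1 lay above Clpp in 8 of 12 libraries. Yme1l1 (14.9 RPKM), Clpx (13.6 RPKM) and Afg3l2 (12.7 RPKM) were the lowest. Their order did not hold in every library, as Yme1l1 lay above Clpx in 10 of 12 and Clpx above Afg3l2 in 8 of 12. The lengths are the union of all annotated exons, 8009 bases for Yme1l1 and 9874 for Afg3l2 against 1223 for Clpp, so RPKM understates genes whose long exons are little used. The position of Afg3l2 given with the counts differs from that in the annotation used for lengths, so its RPKM and rank are less certain.

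On GRCm38, Hspd1 (ENSMUSG00000025980) lies on chromosome 1 at 55077835 to 55088243 on the - strand. Hspe1 (ENSMUSG00000073676) lies at 55088132 to 55091307 on the + strand, so that the gene bodies overlap by 112 bases. These bases make up 4.24% of the exon bases of Hspd1 and 7.6% of those of Hspe1, and since the strand setting of the counting is not given in the sources used here, reads there cannot be assigned to one of the genes. Lonp1 (ENSMUSG00000041168) and Clpp (ENSMUSG00000002660) lie on chromosome 17 at 56614297 to 56626887 and 56990305 to 56996188, and Clpx (ENSMUSG00000015357) on chromosome 9 at 65294260 to 65330658. Yme1l1 (ENSMUSG00000026775) lies on chromosome 2 at 23156369 to 23199260 and Trap1 (ENSMUSG00000005981) on chromosome 16 at 4039971 to 4077827, where 2.1% of its exon bases are shared with the antisense gene Dnase1. Hspa9 (ENSMUSG00000024359) and Afg3l2 (ENSMUSG00000024527) lie on chromosome 18 at 34937414 to 34954357 and 67404767 to 67449166. Rows named as pseudogenes of Hspd1, Hspe1 and Hspa9 held 15 counts in all over the 12 libraries, so few reads were counted for these copies. Whether reads that match a gene and a copy alike were dropped is not known, as the multiple-mapping options are not given.

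**Figure D1:**
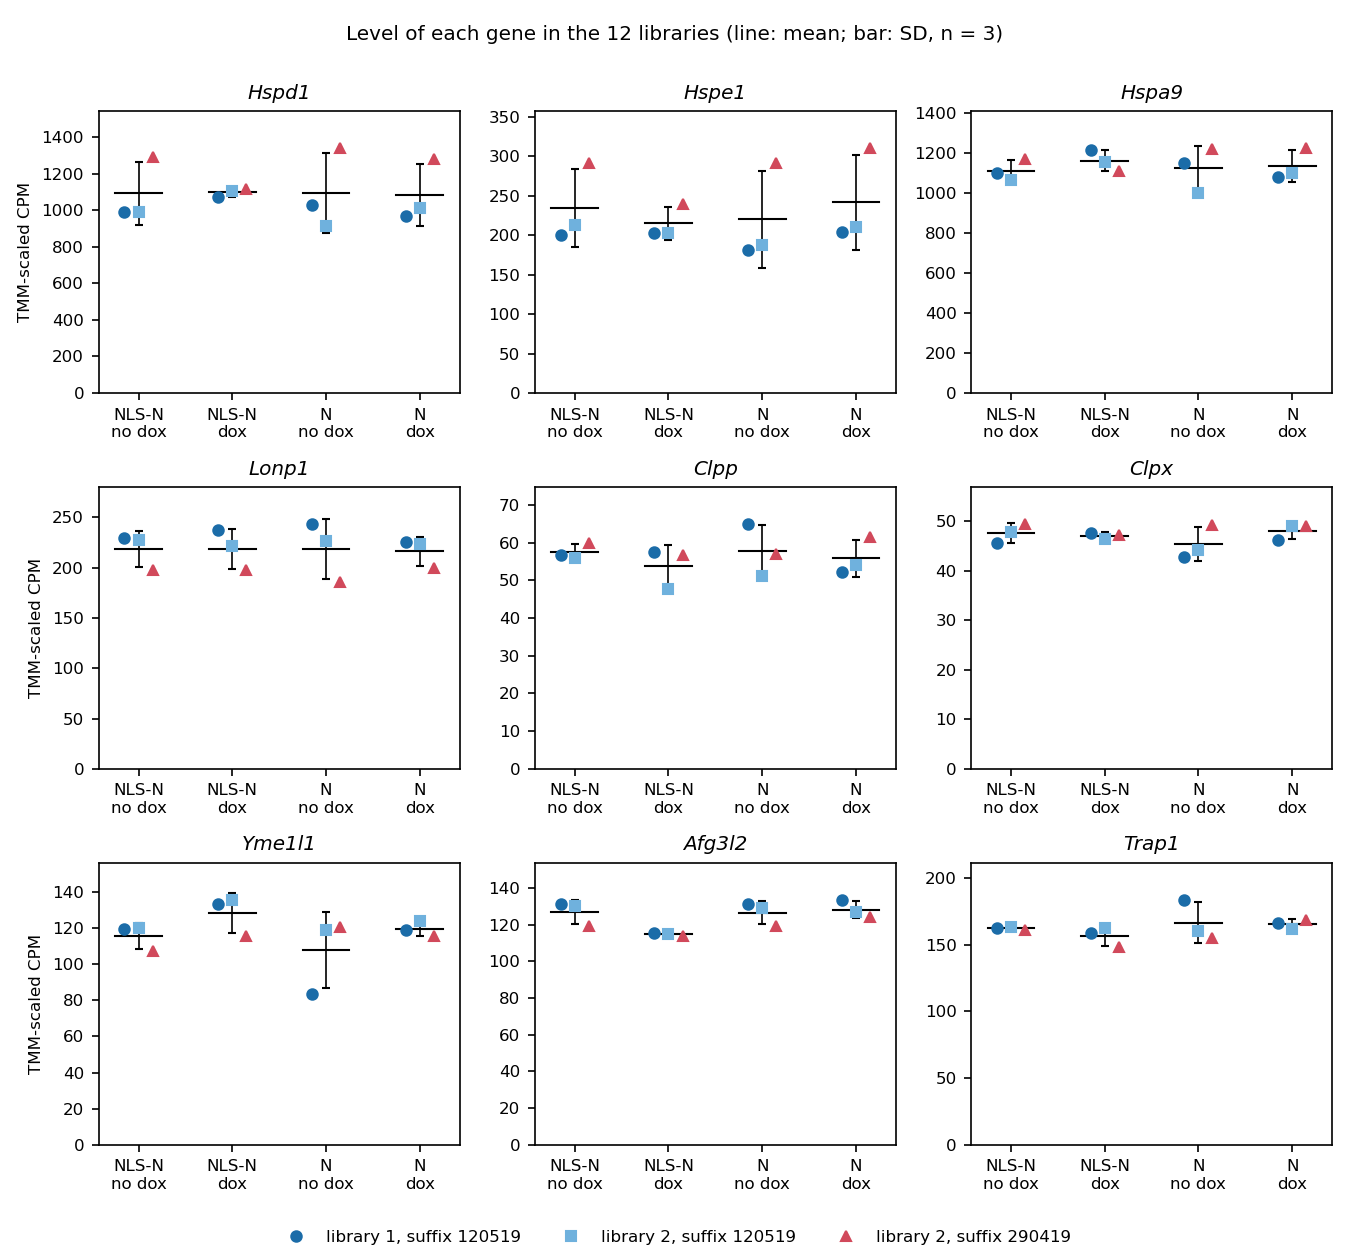
TMM-scaled CPM of each of the 9 genes, on linear axes from 0, in the 4 groups (NLS-N, NLS-N-VEGF cells; N, N-VEGF cells), with 1 symbol per library, the line at the group mean and the bar spanning the SD (n = 3). The ranges with and without dox overlap for each gene in each population except Afg3l2 in NLS-N-VEGF cells, while the triangles of suffix _290419 lie apart from the other libraries for Hspd1, Hspe1 and Lonp1.

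No member passed the test for a change with dox. In NLS-N-VEGF cells 0 of 9 passed edgeR's quasi-likelihood test at an adjusted p under 0.05, against 0.022% of all genes tested (3 of 13608). In N-VEGF cells 0 of 9 passed, against 0.0367% (5 genes), and averaged over both populations 0 of 9 passed, against 0.0588% (8 genes). No member had an unadjusted p under 0.05 in these contrasts. Of the 13608 genes, 318, 201 and 423 did, shares so low that 0 of 9 members is no departure from them. DESeq2's Wald test also called 0 of 9 in each of them. When the replicate label was a block, 0 of 9 passed in each contrast, against 0.125%, 0.11% and 0.566% of all genes (17, 15 and 77 genes), and 1 member, Afg3l2 in NLS-N-VEGF cells, had an unadjusted p under 0.05. With so few genes called, the counts alone say little about the members, and the intervals below give the sizes of change that the data allow. The median log2 fold change over the members was -0.02 in NLS-N-VEGF cells and 0.01 in N-VEGF cells, and over all genes it was 0.00 in both.

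The HSP60 barrel gene Hspd1 lay at 992, 991 and 1292 CPM in untreated NLS-N-VEGF libraries, in the order 1_120519, 2_120519 and 2_290419, and at 1071, 1105 and 1119 CPM in those given dox. The N-VEGF libraries lay at 1026, 916 and 1341 CPM without and at 967, 1010.3 and 1279 CPM with dox. The groups overlapped throughout, and in 3 of the 4 groups the 2_290419 library was well above the other 2. The means were 1092 ± 173 and 1098 ± 24.6 CPM in NLS-N-VEGF cells and 1094 ± 220.4 and 1085 ± 169 CPM in N-VEGF cells (SD, n = 3). The log2 fold change averaged over both populations was -0.00 (SE 0.11), with a 95% interval of 0.846 to 1.18 in fold.

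The HSP10 lid gene Hspe1 lay at 201, 213 and 291 CPM in untreated NLS-N-VEGF libraries and at 203, 203 and 239 CPM in those given dox. The values in N-VEGF libraries were 182, 188 and 291 CPM without and 204, 210.1 and 311 CPM with dox. Each N-VEGF library with dox was above the library of the same label without it, by log2 ratios of 0.17, 0.16 and 0.09, whereas the NLS-N-VEGF pairs gave 0.02, -0.06 and -0.28. The fitted log2 fold changes were 0.13 (SE 0.21) and -0.13 (SE 0.21). Their difference, NLS-N-VEGF minus N-VEGF, was -0.26 with a 95% interval of -0.91 to 0.40, and with the replicate label as a block it was -0.25 with an interval of -0.49 to 0.00 and an edgeR adjusted p of 0.9998 (unadjusted p 0.0504).

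Hspa9, the mitochondrial HSP70, lay at 1102, 1066 and 1172 CPM in NLS-N-VEGF libraries without dox and at 1219, 1159 and 1114 CPM with it. For the N-VEGF libraries the levels were 1152, 1001 and 1222 CPM without and 1082, 1101 and 1227 CPM with dox. The groups overlapped in both populations, and 4 of 6 same-label pairs were higher with dox. The log2 fold change averaged over both populations was 0.04 (SE 0.07), with an interval of 0.931 to 1.13 in fold.

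Trap1, the HSP90 relative, lay at 163, 163 and 161 CPM in the untreated NLS-N-VEGF libraries and at 159, 162 and 148 CPM in those with dox. N-VEGF libraries gave 184, 160.3 and 155 CPM without and 166, 162 and 168 CPM with dox, the value of 184 CPM being that of the 1_120519 library with the fewest genes detected. Averaged over both populations the log2 fold change was -0.03 (SE 0.06).

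Among the matrix proteases, Lonp1 lay at 229.5, 227 and 198 CPM in untreated NLS-N-VEGF libraries and at 237, 221 and 197 CPM in those given dox. Its levels in N-VEGF libraries were 244, 227 and 185 CPM without and 225, 223 and 199.6 CPM with dox. The 2_290419 library was the lowest in every group, and dox groups overlapped with their controls. The log2 fold change averaged over both populations was -0.01 (SE 0.08), with an interval of 0.881 to 1.12 in fold.

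Clpp, the peptidase of the ClpXP protease, lay at 56.7, 55.9 and 60.0 CPM in untreated NLS-N-VEGF libraries and at 57.4, 47.6 and 56.7 CPM in those given dox. N-VEGF libraries held it at 65.0, 51.0 and 56.9 CPM without and at 52.2, 53.9 and 61.4 CPM with dox. Its same-label log2 ratios ran from -0.31 to 0.11, with 3 of 6 above 0. The unfoldase gene Clpx lay between 42.8 and 49.5 CPM in all 12 libraries. The group means were 47.6 ± 1.98 and 47.1 ± 0.702 CPM for NLS-N-VEGF cells without and with dox, and 45.4 ± 3.44 and 48.1 ± 1.66 CPM in N-VEGF cells (SD, n = 3). Averaged over both populations the log2 fold changes were -0.07 (SE 0.08) for Clpp and 0.03 (SE 0.06) for Clpx, each smaller in size than its SE.

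In NLS-N-VEGF cells the genes of the inner membrane proteases gave the lowest and the highest fold change with dox among the members. Yme1l1, the protease that faces the intermembrane space, lay at 119.7, 120.3 and 107 CPM in NLS-N-VEGF libraries without dox and at 133, 136 and 116 CPM with it. In the N-VEGF libraries it lay at 83.4, 119 and 121 CPM without and at 119, 124 and 116 CPM with dox. Of the 6 same-label pairs 5 were higher with dox, and the groups overlapped in both populations. The log2 fold change averaged over both populations was 0.15 (SE 0.09, 95% interval -0.05 to 0.35), with an edgeR adjusted p of 0.99995, or 0.557 with the block. The N-VEGF value rested on library 1_120519 without dox. It was 0.15 with that library and -0.00 without it, and the averaged value fell to 0.07 (SE 0.06).

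Afg3l2, a subunit of the protease that faces the matrix, lay at 131, 130.3 and 119 CPM in untreated NLS-N-VEGF libraries and at 116, 115 and 114 CPM in those given dox. All 3 libraries with dox were thus below all 3 without it, the only member in either population whose groups did not overlap, against 9.25% of all genes in NLS-N-VEGF cells and 3.92% in N-VEGF cells. The log2 fold change was -0.14 (SE 0.07, 95% interval -0.31 to 0.02), with edgeR adjusted p-values of 0.9998 and, under the replicate block, 0.674. Its blocked interval ran from -0.28 to -0.00. In N-VEGF cells Afg3l2 lay at 131, 129 and 119 CPM without and at 134, 127 and 124 CPM with dox, a log2 fold change of 0.02 (SE 0.07). The difference of the log2 fold changes between the populations was -0.16 (SE 0.10, 95% interval -0.39 to 0.06).

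**Figure D2:**
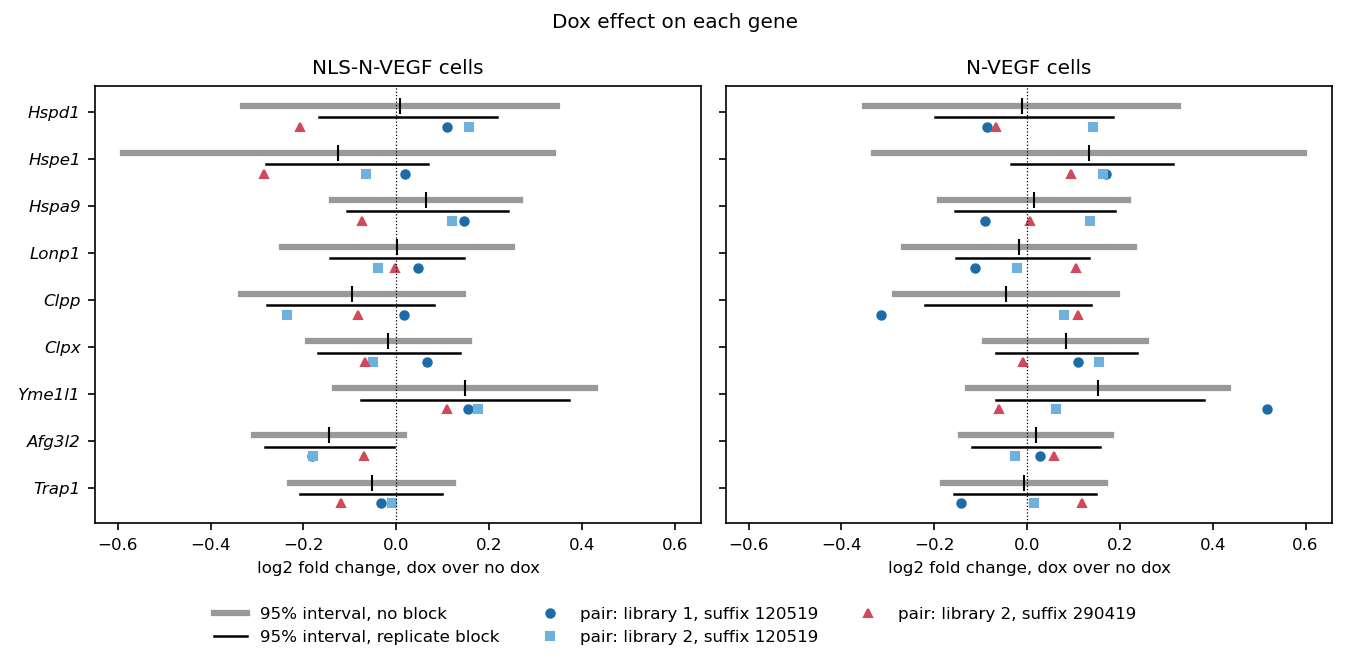
Log2 fold change of each gene, dox over no dox, in either population, with the fitted value as a tick, its 95% interval from edgeR without (grey) and with (black) the replicate block, and the log2 ratio of each same-label pair as a symbol. The fitted values lie between -0.14 and 0.15, every grey interval crosses 0, and the black intervals cross 0 except that of Afg3l2 in NLS-N-VEGF cells.

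Taken over the 9 members, the 95% intervals of the dox effect averaged over both populations lay between 0.799-fold and 1.27-fold, and with the replicate label as a block between 0.873-fold and 1.24-fold. In the single populations they were wider, from 0.665-fold to 1.35-fold in NLS-N-VEGF cells and from 0.785-fold to 1.51-fold in N-VEGF cells (0.823-fold to 1.29-fold and 0.858-fold to 1.30-fold with the block). The difference of the dox effects between the populations passed the test for 0 of 9 members and for 0% of all genes, with and without the block. Without the block 116 of the 13608 genes and none of the members had an unadjusted p under 0.05 for this difference. NLS-N-VEGF and N-VEGF cells, averaged over dox, also differed in 0 of 9 members and in 0% of all genes with either fit, while 166 genes and no member had an unadjusted p under 0.05. The population differences of the members ran from -0.08 for Afg3l2 to 0.10 for Yme1l1 on the log2 scale.

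The members were then compared between the suffixes of the library titles. Hspe1 and Hspd1 were higher and Lonp1 was lower in the 4 libraries of suffix _290419 than in the 8 of suffix _120519, in the test with group in the model. With 3 of 9 members called against 45.6% of all genes (45.8% when the replicate label was a block), the members were not called more often than other genes. By direction, 2 of 9 were higher, against 22.2% of all genes, and 1 of 9 was lower, against 23.5%.

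Hspe1 ran from 182 to 213 CPM in the suffix _120519 libraries, with a median of 203, and lay at 291, 239, 291 and 311 CPM in those of suffix _290419. The fold was 1.41 and the log2 fold change 0.50 (SE 0.06), with an edgeR adjusted p of 8.2e-06. Its neighbour Hspd1 ran from 916 to 1105 CPM with a median of 1001, and lay at 1292, 1119, 1341 and 1279 CPM in suffix _290419. The fold was 1.25 and the log2 fold change 0.32 (SE 0.07), with an edgeR adjusted p of 0.000995. Lonp1 ran from 221 to 244 CPM with a median of 227, and lay at 198, 197, 185 and 199.6 CPM in suffix _290419. The fold was 0.851 and the log2 fold change -0.23 (SE 0.05), with an edgeR adjusted p of 0.00131. For these 3 genes the libraries of the suffixes did not overlap, which held for 28% of all genes.

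Ratios of counts within a library do not depend on its scaling. Counts of Hspe1 per count of Hspd1 were 0.199 ± 0.0137 (SD, n = 8) in suffix _120519 and 0.225 ± 0.0130 (SD, n = 4) in suffix _290419, and the ranges, 0.177 to 0.214 and 0.214 to 0.243, overlapped slightly. Counts of Lonp1 per count of Hspd1 were 0.228 ± 0.0141 against 0.156 ± 0.0157, with ranges of 0.200 to 0.248 and 0.138 to 0.176 that did not overlap. The ratio of Clpx to Clpp was 0.848 ± 0.0922 against 0.831 ± 0.0283, and that of Afg3l2 to Yme1l1 was 1.09 ± 0.223 against 1.04 ± 0.0638, both differences being within the spread of the libraries.

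The other 6 members did not pass the test between the suffixes. Their log2 fold changes were 0.10 for Clpp, 0.09 for Hspa9, 0.08 for Clpx, -0.05 for Yme1l1, -0.06 for Trap1 and -0.09 for Afg3l2. Without library 1_120519 of N-VEGF cells without dox, 5 of 9 were called, against 7200 of 13947 genes, also more than with all libraries. Clpp (0.14, edgeR adjusted p 0.0313) and Yme1l1 (-0.12, edgeR adjusted p 0.0304) joined Hspd1, Hspe1 and Lonp1. Cell type markers also differed between the suffixes. Of 9 fibroblast markers tested, 4 were higher and 3 lower in suffix _290419, against the same 45.6% of all genes called, and those with the smallest p were Lum (log2 fold change 5.26, at a mean of 0.407 CPM), Thy1 (0.53), Col3a1 (-1.22) and S100a4 (0.40). Among markers of other cell types, Cd68 (0.83) was higher and Csf1r (-0.43) lower of 2 leukocyte genes tested, Tie1 (-1.30) was lower of 3 endothelial genes, and Krt14 (0.73) was higher of 2 epithelial genes, all 4 at a mean of 7.09 CPM or less. The part of these differences in the members' values was not tested. The labels do not say what else differed between the libraries of the suffixes.

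**Figure D3:**
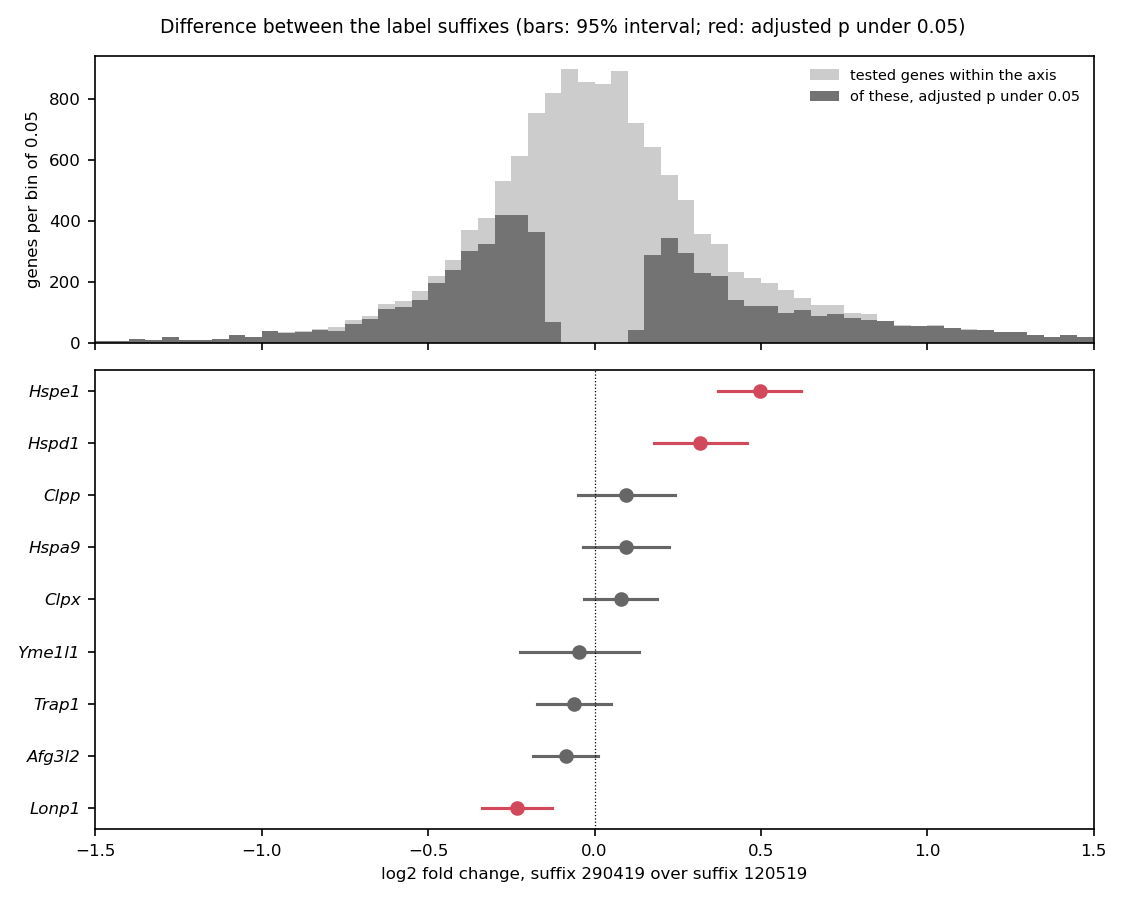
Log2 fold change between suffix _290419 and suffix _120519, with the upper panel counting all tested genes within the axis per bin and the lower panel giving each of the 9 genes with its 95% interval from edgeR, in red at an adjusted p under 0.05. Hspe1 at 0.50 and Hspd1 at 0.32 lie above 0, Lonp1 at -0.23 lies below it, and the intervals of the other 6 cross 0.

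Across the 12 libraries the members did not rise and fall as 1 group. Over the 36 pairs of members, Pearson's r of log2 CPM ran from -0.90 to 0.91 with a median of 0.01, and 18 pairs were above 0. After group and suffix were taken out it ran from -0.80 to 0.89 with a median of 0.16. Hspd1 and Hspe1 had an r of 0.91 (0.81 after group and suffix were taken out) and Hspd1 and Hspa9 an r of 0.82 (0.89). These points share libraries, depth and suffix, and r is given as a description. The 5 other genes most like the mean of the members' centred log2 CPM, among 8913 genes searched, were Dnajc8 (r 0.96), 2700062C07Rik (0.95), Rars (0.94), Psma6 (0.94) and Pam (0.94).

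The wider pathway was followed in lists of the genes that work with the members or control them. In all of these lists 0 genes were called with dox in either population, in the average or in the difference of the dox effects, with or without the block. One list held transcription factors of mitochondrial stress and the genes that report on them, many of them targets of the factor ATF4, and 19 of its 21 genes were tested. With dox, their log2 fold changes had a median of 0.09 in NLS-N-VEGF cells, with 15 of 19 above 0, and -0.05 in N-VEGF cells, with 4 of 19 above 0. The N-VEGF median of this list changed sign without library 1_120519 without dox, an alternative chosen after the values were seen. It was then 0.08, with 17 of 19 above 0, and with the block 0.04, with 13 of 19 above 0. The 13 protein-coding genes of the mitochondrial genome, which are transcribed inside the organelle, had a median of 0.20 in NLS-N-VEGF cells and 0.33 in N-VEGF cells. Of these 13, 12 had a value above 0 in each population, and with the block, for the average, 10 of 13 had an unadjusted p under 0.05, against 1266 of 13608 genes, while the smallest adjusted p in edgeR was 0.152 for mt-Nd4 (log2 fold change 0.36). Without the block 4 of 13 had an unadjusted p under 0.05 for the average, against 423 of all genes. The 13 values depend together on each library's mitochondrially encoded share of counts, so they are not 13 separate observations. The N-VEGF median of these 13 genes rested in part on library 1_120519 without dox, where that share was lowest. Without that library, a choice made after the values were seen, the median was 0.18 in N-VEGF cells and 0.19 in the average, and with the block it was 0.13 and 0.21. In that blocked average 8 of 13 had an unadjusted p under 0.05, against 1356 of 13947 genes, and mt-Cytb passed the threshold (log2 fold change 0.22, edgeR adjusted p 0.0378), as did 0.853% of all genes. The cytosolic heat shock genes, 13 tested, had a median of -0.01 in both populations.

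Between the suffixes the lists did not all move one way, and the background of 45.6% called applies to each. Among the 19 stress factors and reporters 13 were lower in suffix _290419 and 0 were higher, and the median of their log2 fold changes was -0.26, beside 0.00 for all genes. They included Chac1 (-1.55), Trib3 (-1.31), Ddit4 (-1.09) and Pck2 (-0.70), where Trib3 encodes a pseudokinase and Pck2 the mitochondrial form of a gluconeogenic enzyme. Among 13 cytosolic heat shock genes 6 were higher and 1 was lower, with a median of 0.17, and those with the smallest p were Bag3 (0.49), Hsf1 (0.34), Hspa8 (0.35) and Hspa4l (-0.30). Hsf1 encodes the main heat shock factor and Hspa8 the constitutive HSP70 of the cytosol.

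Of the 12 genes listed as co-chaperones and other matrix chaperones 2 were higher and 1 was lower. Grpel1, the nucleotide exchange factor of the mitochondrial HSP70, was at 0.34 and Pam16 at 0.25. The lower gene, Hsd17b10 at -0.22, encodes a dehydrogenase rather than a chaperone. Of the 15 other mitochondrial proteases 2 were higher and 5 lower, including Lactb (0.59), Parl (0.40), Xpnpep3 (-0.27) and Immp2l (-0.46). Of the 6 genes listed as inner membrane scaffolds of the proteases 2 were higher and 1 was lower, namely Letm1 (0.39), Maip1 (0.29) and Stoml2 (-0.19). Letm1 encodes an ion exchanger of the inner membrane rather than such a scaffold. Of the 15 import genes 3 were higher and 0 lower, namely Timm9 (0.50), Timm10 (0.21) and Timm17a (0.19), which encode subunits of inner membrane translocation machinery. Of 12 biogenesis genes 3 were higher and 3 lower, among them Ssbp1 (0.56), Ppargc1b (-0.64), Myc (-0.33) and Gabpa (-0.27). Of the 13 genes of the mitochondrial genome 1 was higher and 3 were lower, namely mt-Cytb (0.29), mt-Nd5 (-0.84), mt-Nd4l (-0.51) and mt-Nd6 (-0.20).

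**Figure D4:**
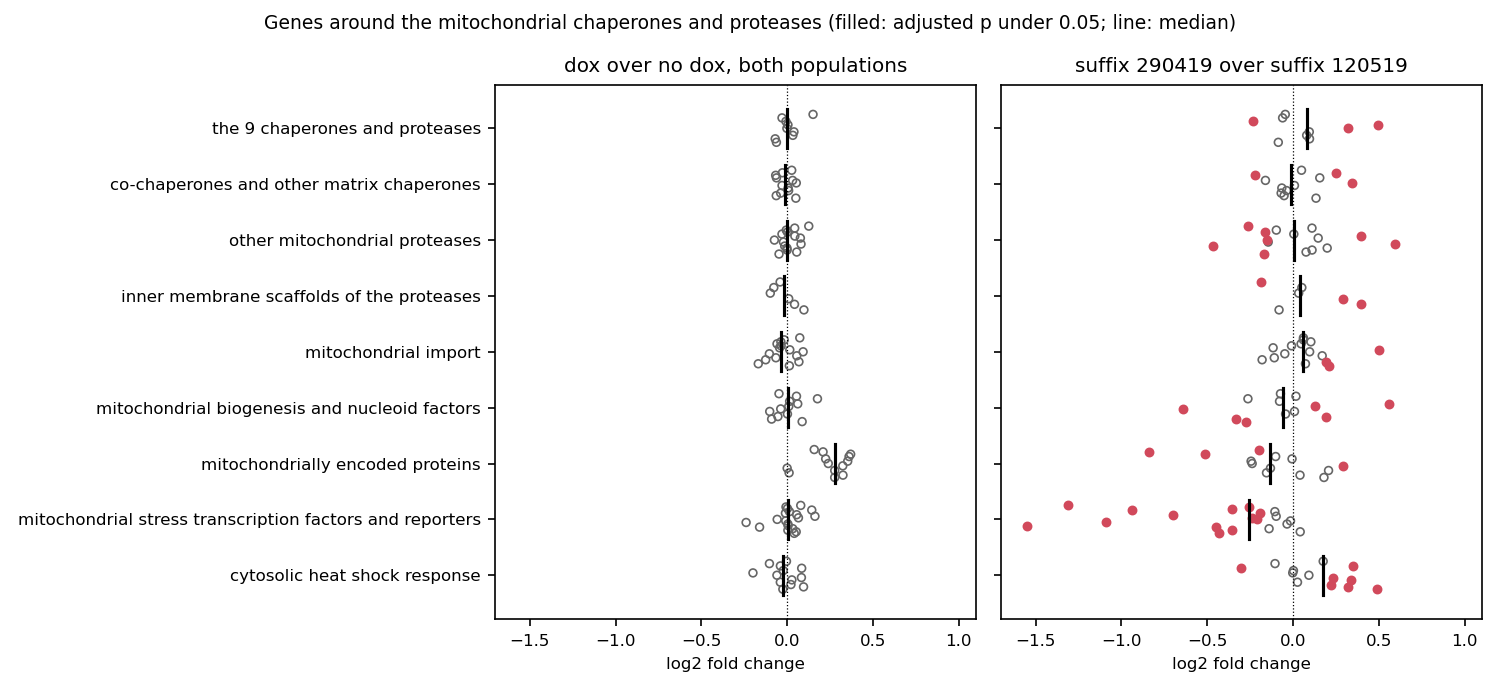
Log2 fold change of each tested gene of the lists (points, filled at an adjusted p under 0.05) and the list median (line), with dox averaged over both populations on the left and between the suffixes on the right. No point is filled on the left, where the mitochondrially encoded genes have a median of 0.28, and filled points on the right lie on both sides of 0.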

How the data were processed

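The 12 libraries were prepared from total RNA with the TruSeq RNA kit v2 and sequenced as single reads. Per the submitters' processing notes the authors trimmed reads (cutadapt 1.10), aligned them to GRCm38 with TopHat2 2.1.0 and Bowtie2 2.2.6 and counted them with HTSeq 0.6.1. The authors deposited raw read counts for each gene, not normalized, and strand and multiple-mapping options are not given in the sources used here. Counts were tested in R 4.3.3 with edgeR 4.0.16 (filterByExpr by group, TMM scaling, 1 mean per group, quasi-likelihood F test, two-sided). Benjamini-Hochberg adjustment was made over all 13608 genes, with calls at an adjusted p under 0.05. CPM uses the TMM-scaled total. The suffix contrast had group in the model. SE were derived from the F statistic. Alternatives were DESeq2 1.42.0, RLE scaling, other filters, the replicate label or suffix as a block, the suffix _120519 libraries alone and leaving out each library.

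Libraries of the same replicate label were alike across groups. Deviations from group means correlated with a mean r of 0.54 over 18 same-label pairs (0.32 to 0.79, 18 of 18 above 0.1). Over 36 others the mean was -0.23 (-0.70 to 0.60, 12 above 0.1), over 12058 genes of at least 1 CPM. Deviations within a group sum to 0, which pushes the others below 0, and the label includes the suffix. These r therefore do not show pairing beyond the suffix. The common biological coefficient of variation was 15.5% without a block, 7.93% with the suffix in the model and 7.86% with the replicate block. The test was checked on simulated data, with the same spread within a suffix for every gene. There the smaller changes were mostly missed without the block and mostly recovered with it. Even these were larger in size than any dox effect fitted for a member. The members and lists were chosen with earlier results of these data known. All 9 members, the construct row, up to 4 genes with the smallest p in each list with a call, and the 5 genes most like the members are named. Marker genes Fap, Tyrobp and Krt5, and mt-Nd4, were named after their values were seen.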

Additional observations from a re-analysis of the deposited data

Results flagged for a closer look

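Of 18 sets of member values checked within a suffix, 3 held a library that stood apart by its gap to the next one, and chance marks about 1 in 20 sets. Yme1l1 lay at 83.4 CPM in library 1_120519 of N-VEGF cells without dox, and the nearest of the other 7 libraries of that suffix lay at 118.9 CPM. In the same library Trap1 lay at 183.7 CPM, against 166.4 CPM in the nearest of the other 7. That library also had the fewest genes detected, 19976, and the lowest share of mitochondrially encoded counts, 3.92%. Lonp1 lay at 185.5 CPM in library 2_290419 of N-VEGF cells without dox, against 197.3 CPM in the nearest of the other 3 libraries of that suffix.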

How the results depend on the processing

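The count of members called was 0 in each dox and population contrast under every alternative run. Between the suffixes it was 3 to 5 when 1 library was left out, and 3 under the alternatives that kept all 12 libraries. The 5 came only without library 1_120519 of N-VEGF cells without dox, where 7200 of 13947 genes were called. With the replicate block, 0 members were called with dox and 3 between the suffixes, and it changed no other call for a member. Of 1008 single-gene values under the alternatives, 101 had the other sign, all of them uncalled and between -0.13 and 0.15 on the log2 scale, and 2 newly passed the threshold, Clpp (0.14) and Yme1l1 (-0.12) between the suffixes without the same library. Over all genes the counts depended more on the fit. With dox in NLS-N-VEGF cells 3 genes were called, against 17 with the replicate block, 11 with DESeq2, 53 with no filter and 109 in the suffix _120519 libraries alone. In N-VEGF cells the counts were 5, against 15, 8, 36 and 16, and in the average 8, against 77, 20, 77 and 135. For the difference of the dox effects and for the populations, where 0 genes were called, no filter gave 1 and 10 genes and the suffix _120519 libraries alone gave 4 and 4. The causes were not tested. Depth did not limit the members, which lay far above the floor of 0.221 CPM. The median of the mitochondrially encoded genes with dox in N-VEGF cells moved from 0.33 to 0.18 without library 1_120519 without dox, an alternative chosen after seeing the data. That of the mitochondrial stress factors and reporters moved from -0.05 to 0.08 under the same alternative.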
